A study of Mus musculus with 9 samples.

Results

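The E2F transcription factors and their DP partners were read as 10 genes (E2f1 to E2f8, Tfdp1 and Tfdp2) in sorted mouse bone-marrow cells. All probes that the platform annotation gives to one of these symbols were taken, which came to 27 of 45281 probes on the array. The cells were LSK cells (lineage-negative, Sca-1-positive, Kit-positive), the marrow fraction that holds stem cells and early progenitors. They came from 12-week-old male C57BL/6 mice killed 6 days after 5-fluorouracil at 150 µg/g, a drug that kills dividing cells. The genotypes were Socs2-/- (4 arrays), which lacks the cytokine-signalling suppressor Socs2, and wt (5 arrays), and all mice of both genotypes had received the drug. Animals without the drug were not analysed here, so no value below is a response to it. The labels do not say which part of Socs2 is deleted, nor whether an array is 1 mouse or a pool, and the p-values below therefore rest on variation among arrays, part of which may be technical.

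E2F factors bind DNA as heterodimers with a DP protein and control the genes that carry a cell from G1 into S phase. E2F1, E2F2 and E2F3 are known mainly as activators, which the retinoblastoma protein holds silent until cyclin-dependent kinases release them. E2F4 and E2F5 act mainly as repressors with the pocket proteins p107 and p130, E2F6 represses without pocket proteins, in Polycomb complexes, and E2F7 and E2F8 bind DNA without a DP partner and repress E2F targets late in S phase. In marrow, E2F activity goes with the entry of resting stem cells into division.

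Several E2F genes are known to be E2F targets themselves, and the letters that E2F proteins prefer were looked for in the members' promoters. The motif searched was 8 letters long, TTTCCCGC, TTTCGCGC, TTTGCCGC or TTTGGCGC, on either strand, in RefSeq windows of 300 bases (250 before and 50 from the annotated start, GRCm38.p6). Of 8 member genes with a window, 4 held it (50%): E2f2, E2f3, E2f7 and Tfdp1. Over all 27025 genes with a window, 704 held it (2.6%), and among 33 G1/S genes known as E2F targets 15 did (45.5%). A match is a description of the letters, not a measured binding site. The 4 windows are shown because they carry the motif of the factors described here, with the match in capitals, each 5′ to 3′ on the gene's strand. E2f2 lies at chr4:136172024-136172323 on the plus strand, E2f3 at chr13:29986014-29986313 on the minus strand, E2f7 at chr10:110745189-110745488 on the plus strand and Tfdp1 at chr8:13338501-13338800 on the plus strand.
E2f2: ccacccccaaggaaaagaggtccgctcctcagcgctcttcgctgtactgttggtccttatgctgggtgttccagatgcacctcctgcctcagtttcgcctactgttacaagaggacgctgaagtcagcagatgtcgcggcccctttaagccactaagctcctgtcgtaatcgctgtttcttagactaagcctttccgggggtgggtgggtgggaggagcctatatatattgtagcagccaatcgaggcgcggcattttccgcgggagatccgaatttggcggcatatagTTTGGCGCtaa
E2f3: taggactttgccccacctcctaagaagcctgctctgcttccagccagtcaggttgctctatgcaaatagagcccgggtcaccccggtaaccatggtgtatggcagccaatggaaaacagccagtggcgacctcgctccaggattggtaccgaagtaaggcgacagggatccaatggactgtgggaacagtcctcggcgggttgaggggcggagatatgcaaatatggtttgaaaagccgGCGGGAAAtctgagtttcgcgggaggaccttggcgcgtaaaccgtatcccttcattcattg
E2f7: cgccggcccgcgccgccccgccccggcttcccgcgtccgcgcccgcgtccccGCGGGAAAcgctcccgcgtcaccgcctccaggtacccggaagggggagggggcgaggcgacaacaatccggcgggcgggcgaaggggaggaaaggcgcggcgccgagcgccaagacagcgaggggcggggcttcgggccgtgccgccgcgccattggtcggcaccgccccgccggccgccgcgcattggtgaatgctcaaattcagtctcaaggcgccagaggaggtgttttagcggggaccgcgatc
Tfdp1: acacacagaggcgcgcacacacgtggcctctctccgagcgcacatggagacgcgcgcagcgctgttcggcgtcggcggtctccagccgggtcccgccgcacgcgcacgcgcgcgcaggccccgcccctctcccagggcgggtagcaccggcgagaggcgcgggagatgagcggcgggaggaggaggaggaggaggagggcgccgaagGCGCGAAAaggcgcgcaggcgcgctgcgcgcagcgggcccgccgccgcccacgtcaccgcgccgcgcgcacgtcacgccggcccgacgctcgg
The match began 39 bases downstream of the annotated start in E2f2 and 11 bases upstream of it in E2f3. It began 198 bases upstream in E2f7 and 43 bases upstream in Tfdp1. The other windows of E2f2 and E2f3 and those of E2f1, E2f6, E2f8 and Tfdp2 did not hold these letters. The E2f1 window in the table belongs to a start inside the annotated gene, so the stretch before the gene's outermost start was not searched.

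Values are the authors' normalized log2 values. A level of 7.5, the minimum that an earlier analysis of these data used, was taken to mark off dim probes. Socs2-/- arrays 1 and 2 stood apart, with 31.1% and 31.0% of probes above 7.5, against 34.8% to 35.1% on Socs2-/- arrays 3 and 4 and 34.3% to 35.4% on wt arrays. The difference of each tested E2F and DP probe is therefore also given without them. The Socs2 probe ILMN_2628178 read 6.80, 6.78, 6.58 and 6.70 on Socs2-/- arrays 1 to 4, against 9.59, 9.39, 10.36, 9.38 and 9.65 on wt arrays 1 to 5, so every Socs2-/- array matched its label. Of 12 LSK and stem cell markers, 10 had a named probe. Their log2 differences, Socs2-/- minus wt, ran from -1.40 (Slamf1) to 0.93 (Procr), with Kit at -0.082. All 10 were above 7.5 on at least 4 arrays, Kit on 3 Socs2-/- and 5 wt arrays. Markers of other cells were present too: 3 of 4 T cell markers passed that filter, with Cd8a above 7.5 on all 9 arrays (means 9.16 in Socs2-/- and 9.12 in wt cells). So did 3 of 5 granulocyte and monocyte markers, with Lyz2 at means of 11.67 in Socs2-/- and 11.77 in wt cells. The differences of these 5 ran from -0.68 (S100a8) to 1.46 (Csf1r). Both megakaryocyte markers passed the filter too. Pf4 had means of 10.45 in Socs2-/- and 10.74 in wt cells (difference -0.29), and Itga2b had a difference of 0.74. The 1 B cell marker with a probe, Ms4a1, was above 7.5 on 0 arrays. Of the erythroid markers, Hba-a1 was above it on 4 Socs2-/- and 1 wt arrays (difference 3.37), Hbb-bt on all 9 (0.51), and Klf1 on 1 Socs2-/- and 1 wt array (-0.19). The mean over the 2 mast cell and basophil markers was 6.71 to 9.36 on Socs2-/- arrays, against 8.36 to 9.74 on wt arrays. Mcpt8 was above 7.5 on 1 Socs2-/- and 5 wt arrays (difference -2.08), and Cpa3 on 2 Socs2-/- and 4 wt arrays (-0.39). Of the stroma and endothelium markers, Cxcl12 was above 7.5 on 2 Socs2-/- and 4 wt arrays (difference -1.06). Cdh5 was above it on 1 Socs2-/- and 1 wt array (0.00083). The part of these markers in the results below was not tested.

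No E2F or DP gene was called different between the genotypes. Of the 27 probes, 19 were above 7.5 on at least 4 of the 9 arrays and were tested with limma, and 0 passed at an adjusted p under 0.05, their adjusted p lying between 0.386 and 0.991. Over all 13333 probes tested 0 passed as well (0%). At an unadjusted p under 0.05 there were 2 member probes, beside 10.3% of all probes tested: 1 lower, of E2f3, beside 8.07% of all probes tested, and 1 higher, of E2f6, beside 2.21%. The difference was below 0 for 11 of the 19, beside 59.8% of all probes tested. In all 19 the Socs2-/- and wt arrays overlapped, where 2.63% of all probes were fully apart with Socs2-/- lower and 0.893% with Socs2-/- higher. The median log2 difference, Socs2-/- minus wt, was -0.19 over the 19 probes and -0.19 over all probes tested. Without Socs2-/- arrays 1 and 2 these medians were -0.32 and -0.04. Taking for each gene its probe with the highest mean, 7 of 9 tested members were below 0, beside 59.5% of all genes. The median was then -0.31, beside -0.18 over all genes. Without Socs2-/- arrays 1 and 2 it was -0.32, beside -0.03 over all genes. The sign depended on the probe for E2f6 (-0.49, but 0.21 as the mean of its probes). So it did for Tfdp2 (-0.04, with the other tested probes from -1.07 to 0.37). With all arrays and the mean of each gene's probes, the member median was -0.22, beside -0.17 over all genes. A lower value on these arrays can mean, among other things, fewer cells of a kind or less RNA per cell, which cannot be told apart. Socs2-/- arrays 1 and 2 also had the lowest median correlations with the other arrays (0.50 and 0.47). Those of the remaining arrays were 0.62 to 0.69. The part of such array differences in the lower values was not tested.

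Among the activators, E2f1 and E2f3 had lower means in Socs2-/- cells and E2f2 did not, with none of the 3 called. E2f1, the best studied activator, which can also drive apoptosis, has 1 probe (ILMN_1231138). It read 9.33, 7.26, 9.97 and 8.37 on Socs2-/- arrays 1 to 4, against 8.25, 10.48, 9.92, 11.46 and 11.10 on wt arrays 1 to 5. The 3 brightest arrays were all wt (2, 4 and 5), while wt array 1 was the second dimmest of the 9, and only Socs2-/- array 2 lay below every wt array. The means were 8.73 ± 1.18 in Socs2-/- cells (SD, n = 4) and 10.24 ± 1.26 in wt cells (SD, n = 5). The log2 difference was -1.51 (SE 0.73, 95% interval from -3.12 to 0.09, limma adjusted p = 0.507). It was -1.07 without Socs2-/- arrays 1 and 2, -2.01 without wt array 1 and -1.02 without Socs2-/- array 2.

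E2f3, an activator that proliferating cells of many kinds need, has 2 probes, and both had lower means in Socs2-/- cells. The brighter one (ILMN_1214485) read 7.53, 6.83, 9.08 and 8.99 on Socs2-/- arrays 1 to 4, against 10.26, 9.64, 8.89, 9.79 and 10.12 on wt arrays 1 to 5. Socs2-/- arrays 3 and 4 lay just above wt array 3, the dimmest wt array, so the overlap rests on that array. Socs2-/- arrays 1 and 2 lay clearly below all 5 wt arrays. The means were 8.11 ± 1.11 in Socs2-/- cells (SD, n = 4) and 9.74 ± 0.53 in wt cells (SD, n = 5), or 3.10-fold lower in Socs2-/- cells. The log2 difference was -1.63 (SE 0.55, 95% interval from -2.84 to -0.43), with a limma p of 0.0122 and an adjusted p of 0.386, above the threshold. Without Socs2-/- arrays 1 and 2 it was -0.71. Leaving out single arrays gave -1.96 (without Socs2-/- array 3) to -1.21 (without Socs2-/- array 2).

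The second E2f3 probe (ILMN_2743503) read 6.88, 6.78, 7.66 and 8.01 on Socs2-/- arrays 1 to 4, against 7.45, 8.99, 7.09, 9.77 and 9.73 on wt arrays 1 to 5. It was above 7.5 on 2 of 4 Socs2-/- arrays and 3 of 5 wt arrays, and wt arrays 2, 4 and 5 were brighter than every Socs2-/- array. Its log2 difference was -1.27 (SE 0.64, limma adjusted p = 0.525), or -0.77 without Socs2-/- arrays 1 and 2. The 2 probes had the same sign but different profiles. Wt array 1 was the brightest on the first and among the dim ones on the second, and the centred values of the probes differed by 0.85 (root mean square over 9 arrays). The Socs2-/- mean on this probe (7.33) was below 7.5, in the range of dim probes.

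E2f2, an activator known from knockout mice for roles in T cells and red cell precursors, has 3 probes. On ILMN_2673776 the values were 10.45, 11.25, 10.79 and 9.94 on Socs2-/- arrays 1 to 4, against 8.16, 10.52, 11.62, 10.72 and 10.42 on wt arrays 1 to 5. On ILMN_2836137 they were 10.08, 10.79, 9.74 and 9.30 on Socs2-/- arrays, against 8.04, 9.65, 10.96, 9.88 and 9.78 on wt arrays. These 2 probes gave nearly the same profile, with a root mean square difference of 0.26, and on both of them all Socs2-/- arrays lay inside the wt range. Their log2 differences were 0.32 (SE 0.64, 95% interval from -1.08 to 1.72) and 0.32 (SE 0.57, 95% interval from -0.95 to 1.58), with limma adjusted p of 0.876 and 0.864. The higher Socs2-/- mean rests on wt array 1, without which they were -0.21 and -0.092. They were 0.075 and -0.14 without Socs2-/- arrays 1 and 2. The third probe (ILMN_1248842) was above 7.5 on 1 Socs2-/- array, where array 1 read 10.51, and on 3 wt arrays, up to 8.36. Its difference was 0.25 with all arrays and -0.47 without Socs2-/- arrays 1 and 2 (limma adjusted p = 0.924 and 0.958).

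**Figure D1:**
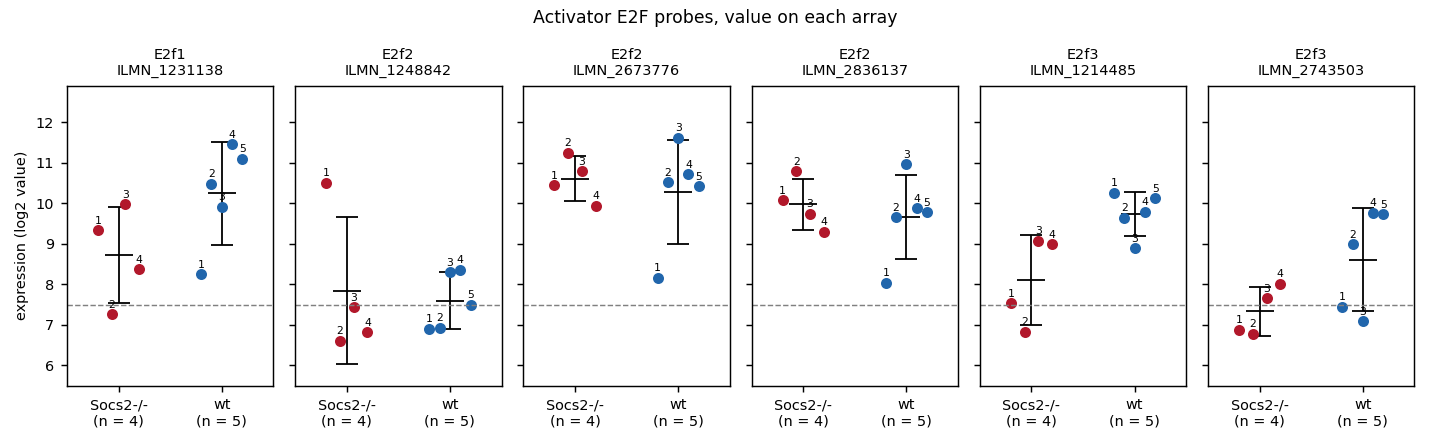
Log2 expression of the 6 activator probes above 7.5 on at least 4 arrays, 1 point an array with its replicate number, Socs2-/- on the left and wt on the right of each panel. Bars are mean and SD, and the dashed line is 7.5. E2f1 and E2f3 have lower means in Socs2-/- cells with overlapping arrays, and on the 2 bright E2f2 probes the Socs2-/- arrays lie inside the wt range.

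The repressors E2f4 and E2f5 were not called. E2f4, the most abundant E2F of resting cells in many tissues, has 1 probe (ILMN_2794796) that was above 7.5 on all 9 arrays. It read 9.76, 9.97, 10.64 and 9.22 on Socs2-/- arrays 1 to 4, against 10.16, 9.91, 9.54, 10.57 and 10.86 on wt arrays 1 to 5. The genotypes overlapped widely, with 1 Socs2-/- array below the wt range. Its log2 difference of -0.31 (SE 0.44, limma adjusted p = 0.816) had a 95% interval from -1.27 to 0.65, which holds values of either sign. It was -0.28 without Socs2-/- arrays 1 and 2, -0.088 without Socs2-/- array 4, -0.15 without wt array 5 and -0.56 without Socs2-/- array 3.

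E2f5, the close relative of E2f4, has 2 probes. ILMN_2743953 was at or below 7.5 on all 9 arrays. ILMN_2953596 read 6.77, 10.11, 7.22 and 6.58 on Socs2-/- arrays 1 to 4, against 6.65, 7.69, 8.51, 9.54 and 7.84 on wt arrays 1 to 5. It was above 7.5 on 1 Socs2-/- array (array 2) and on 4 wt arrays, so the Socs2-/- mean rests on that one array. This gave a log2 difference of -0.38 (SE 0.79, limma adjusted p = 0.881), which was -1.15 without Socs2-/- arrays 1 and 2. Leaving out single arrays gave -1.19 (without Socs2-/- array 2) to -0.0050 (without wt array 4), and -0.015 without Socs2-/- array 4.

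E2f6, which represses through Polycomb proteins, was read by 6 probes that differed in sign. ILMN_2734152 read 9.49, 11.50, 10.08 and 9.23 on Socs2-/- arrays 1 to 4, against 7.49, 9.51, 9.23, 7.54 and 7.2 on wt arrays 1 to 5. Wt arrays 1, 4 and 5 sat at about 7.5 or below it, while all Socs2-/- arrays and wt arrays 2 and 3 were above 9. The means were 10.08 ± 1.01 in Socs2-/- cells (SD, n = 4) and 8.19 ± 1.08 in wt cells (SD, n = 5). Socs2-/- minus wt was 1.88 on the log2 scale (SE 0.65, 95% interval from 0.46 to 3.30), with a limma p of 0.0141 and an adjusted p of 0.399. It was 1.46 without Socs2-/- arrays 1 and 2.

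No other E2f6 probe showed such a difference. ILMN_2723931, above 7.5 on all 9 arrays, read 8.64, 10.26, 9.77 and 9.84 on Socs2-/- arrays 1 to 4, against 10.29, 11.56, 10.28, 10.04 and 8.43 on wt arrays 1 to 5, for a difference of -0.49 (SE 0.60, limma adjusted p = 0.788), or -0.32 without Socs2-/- arrays 1 and 2. ILMN_2791963 read 9.55, 9.28, 9.35 and 8.86 on Socs2-/- arrays, against 6.79, 9.52, 9.97, 9.84 and 8.75 on wt arrays, for a difference of 0.29 (SE 0.63, limma adjusted p = 0.889). Wt array 1 was the dimmest of the 9 on this probe, and without it the difference was -0.26, while it was 0.13 without Socs2-/- arrays 1 and 2. ILMN_1246301 and ILMN_2581972 had differences of -0.42 and -0.19 (limma adjusted p = 0.776 and 0.913), or -0.60 and -0.34 without Socs2-/- arrays 1 and 2, and ILMN_1253173 was above 7.5 on 3 arrays and was not tested. Of the 10 pairs among the 5 tested probes, 6 had differences of opposite sign. The mean of the 5 probes gave 0.21. Which transcript each probe reads was not checked, since no probe sequence was used here.

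The atypical repressors were dim or level. None of the 4 E2f7 probes was above 7.5 on 4 arrays, and none was tested with limma. Their brightest single values were 8.23 on Socs2-/- array 3 (ILMN_1239950) and 8.58 on wt array 3 (ILMN_2658795). ILMN_1239950 read 6.87, 7.02, 8.23 and 7.63 on Socs2-/- arrays 1 to 4, against 7.13, 7.17, 6.88, 6.87 and 6.74 on wt arrays 1 to 5. It was above 7.5 on 2 Socs2-/- arrays and 0 wt arrays, with an unadjusted exact two-sided permutation p of 0.19, where the smallest p for 4 against 5 arrays is 0.0159. E2f8, the partner of E2f7 in repressing E2F targets, was above 7.5 on all 9 arrays (ILMN_2712498). It read 8.75, 10.14, 7.74 and 8.99 on Socs2-/- arrays 1 to 4, against 8.16, 9.89, 8.84, 9.23 and 8.31 on wt arrays 1 to 5. The Socs2-/- arrays held both the brightest and the dimmest of the 9 values. Its log2 difference was 0.02 (SE 0.55, 95% interval from -1.19 to 1.23, limma adjusted p = 0.991), and -0.52 without Socs2-/- arrays 1 and 2.

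Of the DP partners, Tfdp1, the main partner of the E2F factors, had the most even values of any member tested. Its probe (ILMN_2692110) read 11.96, 11.09, 12.17 and 11.96 on Socs2-/- arrays 1 to 4, against 12.07, 12.29, 11.76, 11.96 and 11.99 on wt arrays 1 to 5. Socs2-/- array 2 was the dimmest, and the others lay inside the wt range. The means were 11.79 ± 0.48 in Socs2-/- cells (SD, n = 4) and 12.02 ± 0.19 in wt cells (SD, n = 5). The log2 difference was -0.22 (SE 0.37, 95% interval from -1.04 to 0.60, limma adjusted p = 0.853), or 0.046 without Socs2-/- arrays 1 and 2.

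Tfdp2, which can replace Tfdp1 in the dimer, has 6 probes, of which 4 were tested. ILMN_1238094 read 12.06, 6.96, 9.87 and 9.03 on Socs2-/- arrays 1 to 4, against 9.98, 9.47, 10.36, 8.43 and 9.39 on wt arrays 1 to 5. Socs2-/- array 1 was the brightest and Socs2-/- array 2 the dimmest of all 9, so the SD was 2.11 in Socs2-/- cells and 0.73 in wt cells. ILMN_2591651 repeated this profile with a root mean square difference of 0.11, reading 11.98 and 6.86 on those 2 arrays. Their log2 differences were -0.04 and 0.11 (SE 0.86 and 0.87, limma adjusted p = 0.989 and 0.972). Each depends on which of these arrays is kept: without Socs2-/- array 1 they were -0.90 and -0.75, and without Socs2-/- array 2 they were 0.80 and 0.95. Without both they were -0.072 and 0.076.

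The other Tfdp2 probes followed different profiles. ILMN_2488405 read 8.78, 6.84, 7.86 and 6.96 on Socs2-/- arrays 1 to 4, against 9.22, 8.23, 9.81, 8.19 and 7.95 on wt arrays 1 to 5. On it 3 Socs2-/- arrays lay below every wt array, and the difference was -1.07 (SE 0.55, 95% interval from -2.28 to 0.15, limma adjusted p = 0.536). It was -1.27 without Socs2-/- arrays 1 and 2. ILMN_2760211 read 7.99, 8.29, 7.54 and 9.22 on Socs2-/- arrays, against 6.84, 9.15, 6.87, 8.92 and 7.68 on wt arrays, for a difference of 0.37 (SE 0.60, limma adjusted p = 0.847). It was 0.49 without Socs2-/- arrays 1 and 2, but 0.049 without Socs2-/- array 4, 0.11 without wt array 1 and 0.11 without wt array 3. Of the 6 pairs among the 4 tested probes, 4 had opposite signs. ILMN_2427971 was above 7.5 on 3 arrays and ILMN_2438404 on 0 arrays.

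**Figure D2:**
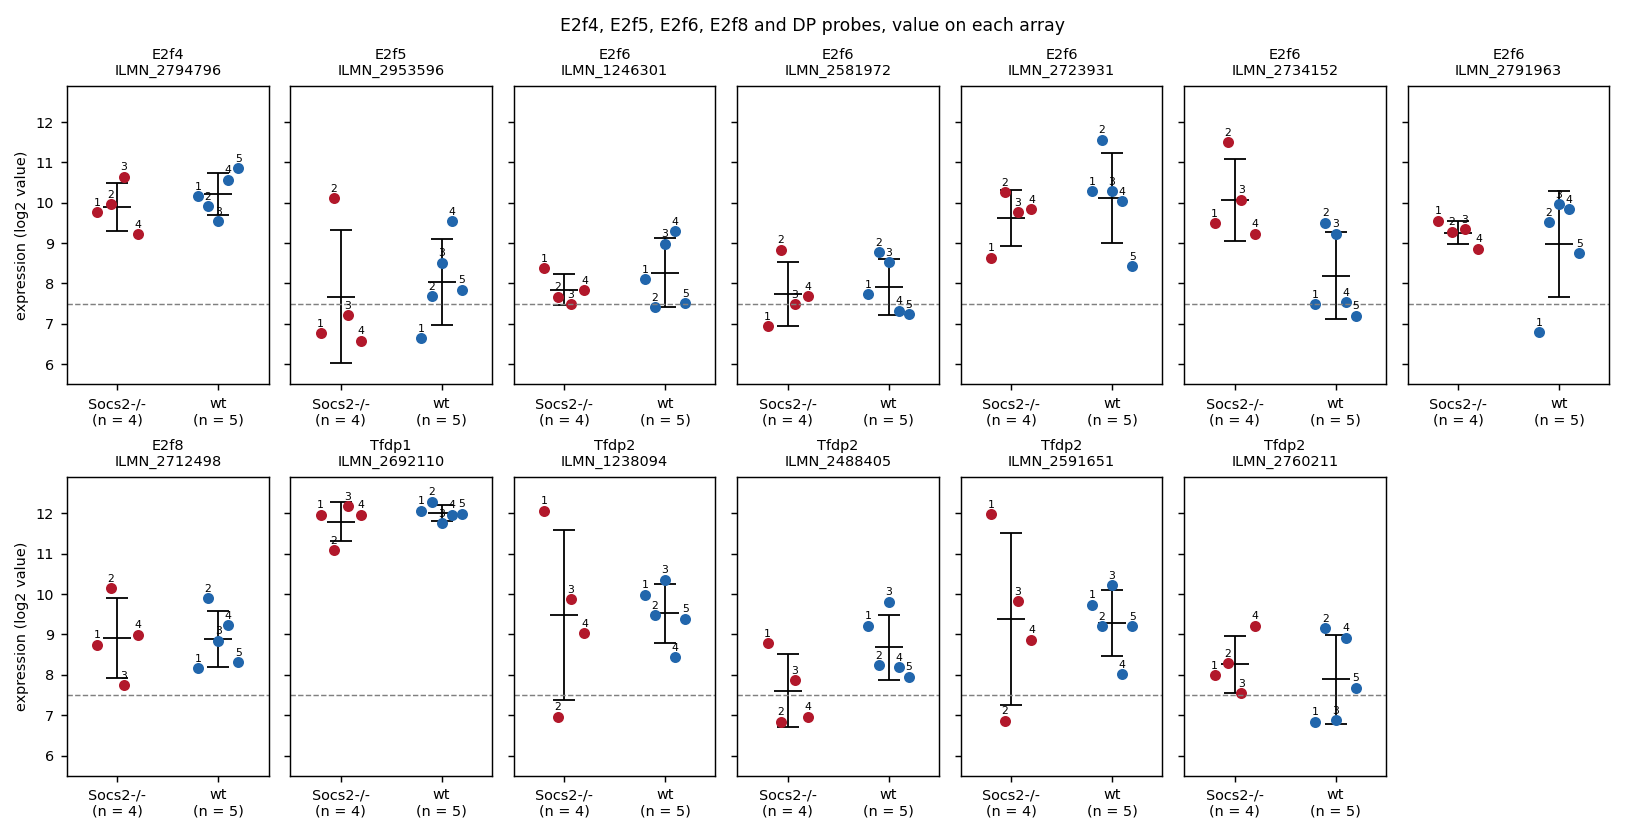
Log2 expression of the 13 probes of E2f4, E2f5, E2f6, E2f8, Tfdp1 and Tfdp2 above 7.5 on at least 4 arrays, 1 point an array with its replicate number, Socs2-/- on the left and wt on the right of each panel. Bars are mean and SD, and the dashed line is 7.5. The E2f6 probe ILMN_2734152 has the higher mean in Socs2-/- cells, and on Tfdp2 probes ILMN_1238094 and ILMN_2591651 Socs2-/- arrays 1 and 2 mark the top and the bottom.

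By role, the 6 activator probes had a median log2 difference of -0.51, the 5 E2f6 probes -0.19 and the 5 DP probes -0.04, beside -0.19 over all probes tested. Without Socs2-/- arrays 1 and 2 these medians were -0.59, -0.32 and 0.05, beside -0.04 over all probes. Probes of a gene share their target, so these medians describe 3, 1 and 2 genes. No activator probe lay near -0.51: those of E2f1 and E2f3 had -1.63 to -1.27, and those of E2f2 had 0.25 to 0.32. The tested probes of E2f4 and E2f5 had a median of -0.35, or -0.71 without Socs2-/- arrays 1 and 2. The median residual SD of the 19 probes was 0.96, against 0.92 over all probes tested, so the members varied between arrays of a genotype about as much as other probes.

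**Figure D3:**
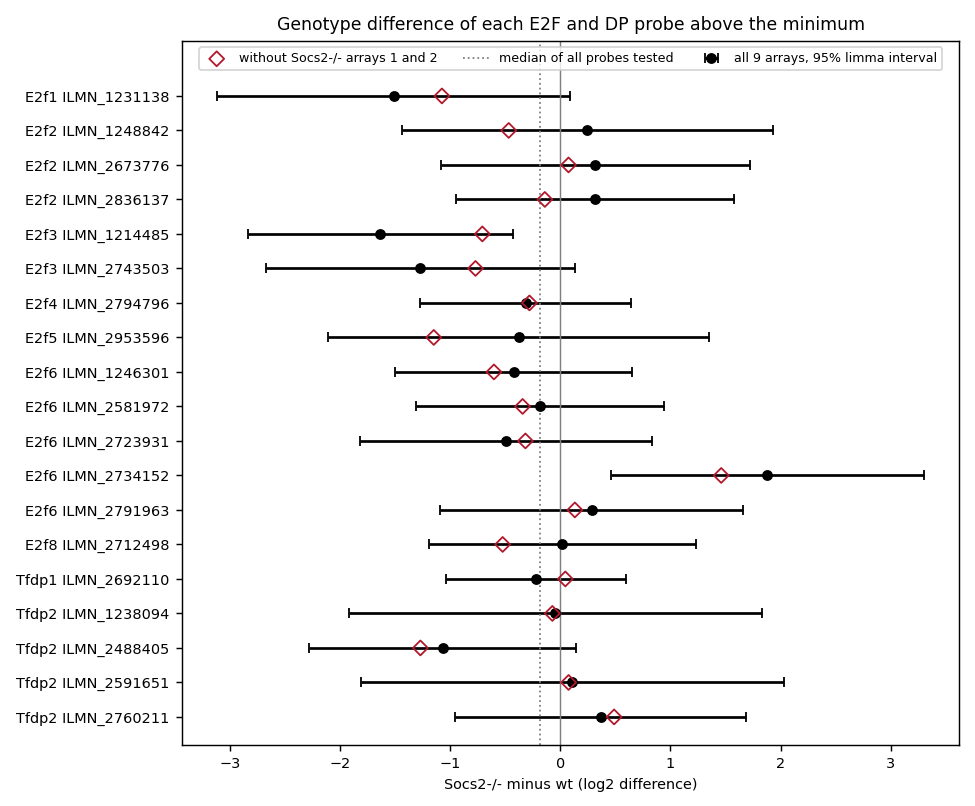
Log2 difference, Socs2-/- minus wt, of the 19 tested E2F and DP probes. Black points and bars are the difference over all 9 arrays with its 95% limma interval, red diamonds the difference without Socs2-/- arrays 1 and 2, and the dotted line the median of all probes tested (-0.19). Intervals leave out 0 in 2 probes, E2f3 ILMN_1214485 and E2f6 ILMN_2734152, neither of which passed after adjustment.

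The genes around the E2F factors were described from lists chosen for their known roles, with 1 probe a gene, the one with the highest mean. Over the 8543 genes tested this way 1 passed at an adjusted p under 0.05 (0.0117%), and it was Socs2. This count was 0 when arrays were centred, when values below 7.5 were set to 7.5, with a variance trend, with the replicate block and with any single array left out other than wt array 3, without which it was 7. None of the listed genes passed. At an unadjusted p under 0.05, 10.2% of all genes differed, 7.87% lower and 2.29% higher in Socs2-/- cells, 59.5% of all genes had a difference below 0, and the median log2 difference over all genes was -0.18, or -0.03 without Socs2-/- arrays 1 and 2.

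The G1/S genes known as E2F targets were spread evenly around 0. Of 40 entries, 38 had a named probe and 35 were tested, of which 17 were below 0 and 18 above. Their median was 0.06, and 0.03 without Socs2-/- arrays 1 and 2, with a range from -0.02 to 0.09 when single arrays were left out. At an unadjusted p under 0.05 there was 1 lower gene, Ccna2, and 1 higher, Mcm10. Ccna2 (cyclin A2, which drives S phase and mitosis) read 7.31, 6.85, 9.81 and 11.34 on Socs2-/- arrays 1 to 4, against 9.67, 10.42, 11.38, 10.94 and 11.33 on wt arrays 1 to 5. The 2 dimmest values were those of Socs2-/- arrays 1 and 2, while Socs2-/- array 4 was among the brightest. Mcm10, a factor that starts replication forks, read 9.59, 10.01, 8.87 and 9.84 on Socs2-/- arrays, against 7.09, 9.45, 9.15, 7.99 and 7.89 on wt arrays, and 3 of 4 Socs2-/- arrays were above all wt arrays. Its 4 tested probes ranged from -1.13 to 1.26. The flap endonuclease gene Fen1 had 1.22 (SE 0.58), and the pocket protein gene Rbl1 -1.26 (SE 0.58). Ccna2 had -0.17, Mcm10 1.04 and Fen1 0.88 without Socs2-/- arrays 1 and 2.

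Upstream of E2F, the pocket proteins bind and silence the factors. Rb1 had a log2 difference of -1.64 (SE 0.81) and Rbl1, which encodes p107, of -1.26, while Rbl2, which encodes p130, had 0.34 (SE 0.47) and -0.034 without Socs2-/- array 2. Rbl1 read 6.96, 9.37, 10.02 and 9.56 on Socs2-/- arrays 1 to 4, against 10.50, 10.51, 9.93, 10.02 and 10.23 on wt arrays 1 to 5, so array 1 held most of its difference. The 2 tested Rb1 probes ran from -1.64 to -0.67, and the 3 of Rbl1 from -1.26 to -0.36. Without Socs2-/- arrays 1 and 2, Rb1 had -0.62, Rbl1 -0.45 and Rbl2 0.29. Of 8 tested G1 cyclins and kinases 6 were below 0, with a median of -0.38. Without those arrays 4 of 8 were below 0, with a median of -0.17. The median also depended on the probes used: with all arrays and the mean of each gene's probes it was -0.74. The 2 at an unadjusted p under 0.05 were Cdk6 at -1.71 (SE 0.70) and Ccnd1 at -1.04 (SE 0.45), a kinase and a cyclin that phosphorylate the retinoblastoma protein together, and Ccne2 had -0.81 and Ccnd2 -0.46. Without those arrays Cdk6 had -1.07, Ccnd1 -1.01, Ccne2 -0.36 and Ccnd2 -0.48. Cdk6 read 7.98, 7.29, 7.09 and 10.75 on Socs2-/- arrays 1 to 4, against 9.51, 10.71, 9.85, 9.60 and 10.28 on wt arrays 1 to 5. On 3 Socs2-/- arrays it lay below every wt array, and on array 4 above them all.

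The CDK inhibitors had 4 tested genes of 7, with 2 below 0 and 2 above and a median of 0.31. Cdkn1c, a mark of resting stem cells, read 6.86, 7.36, 8.85 and 11.26 on Socs2-/- arrays 1 to 4, against 6.78, 7.15, 8.84, 7.23 and 7.94 on wt arrays 1 to 5. Its difference of 0.99 (SE 0.84) came almost wholly with Socs2-/- array 4: it was 0.10 without that array and 2.47 without Socs2-/- arrays 1 and 2, which leaves array 4 more weight. Cdkn1a had 0.68, Cdkn1b -0.053 and Cdkn2d -0.42, or 0.34, 0.12 and -0.24 without Socs2-/- arrays 1 and 2. Each turned when a single array was left out. Without Socs2-/- array 2, Cdkn1a had -0.10 and Cdkn2d 0.33, and without Socs2-/- array 1, Cdkn1b had 0.41. With all arrays, the 3 tested Cdkn1b probes ran from -1.28 to -0.053. The list median was -0.10 without Socs2-/- array 4 and 0.82 without Socs2-/- array 1.

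The complexes that work with E2F factors had medians that turned with the arrays used. The MuvB core and its partners, which bind E2F4 in resting cells and Mybl2 or Foxm1 in dividing ones, had 5 tested genes of 8 with a median of -0.34, which turned to 0.65 without Socs2-/- arrays 1 and 2. Lin54 had -0.85, Rbbp4 -0.52, Mybl2 -0.34 and Foxm1 0.27, and without those arrays they had 0.81, 0.36, 0.65 and 0.48. With all arrays, the 4 tested Rbbp4 probes ran from -0.71 to 1.09 and the 2 of Mybl2 from -0.34 to 0.14. The E2F6 complex partners had 9 tested genes of 9, with 6 below 0 and a median of -0.44, which turned to 0.33 without those arrays. Ring1 had -1.06, Cbx3 -0.46, L3mbtl2 0.59 and Yaf2 1.03, and without those arrays they had -0.83, -0.076, 1.03 and 2.37. The apoptosis genes known as E2F1 targets had 3 genes above the filter of 7 entries. Apaf1 had -0.89 and Casp8 -0.67, or -0.62 and -0.72 without Socs2-/- arrays 1 and 2. Bbc3, which encodes the cell-death protein PUMA and is also a p53 target, read 6.84, 6.85, 6.77 and 7.06 on Socs2-/- arrays, against 9.73, 10.58, 9.62, 6.91 and 10.25 on wt arrays. It was below 7.5 on all Socs2-/- arrays and on wt array 4, so it entered the comparison only through 4 wt arrays, and its sign there follows from the filter. The genotypes also overlapped on Bbc3, with wt array 4 (6.91) below Socs2-/- array 4 (7.06), so no fold or p-value is given for it.

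**Figure D4:**
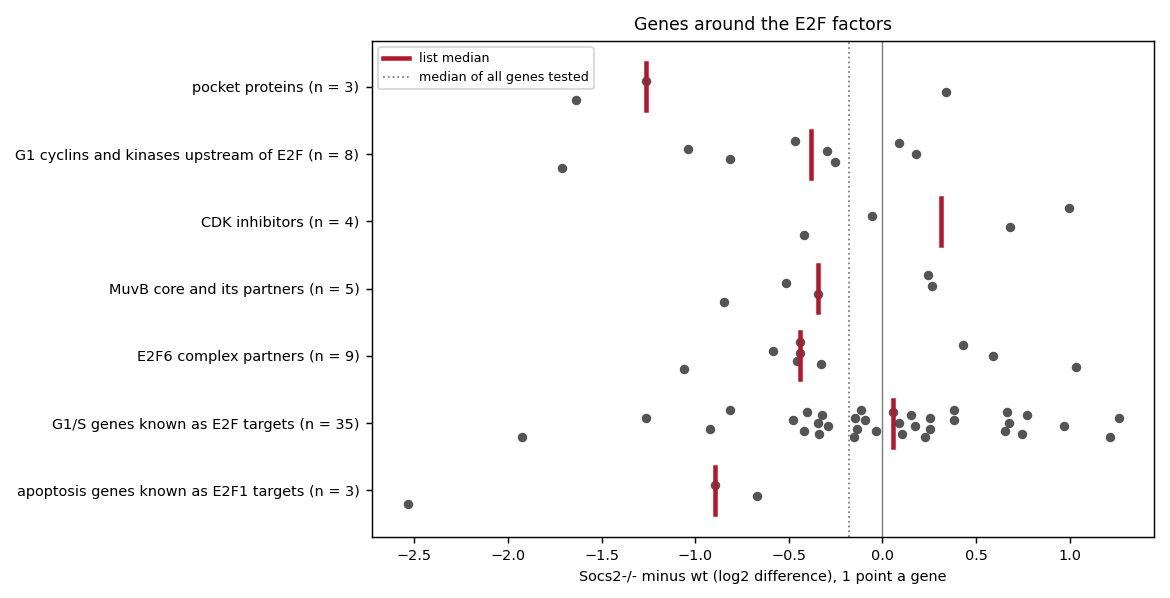
Log2 difference, Socs2-/- minus wt, of the genes around the E2F factors, 1 point a gene and 1 row a list, with the number of genes tested. Red bars are list medians and the dotted line the median of all genes tested (-0.18). The 35 G1/S genes lie on either side of 0 with a median of 0.06, and the lowest point is Bbc3, which passed the filter only through wt arrays.

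The genes whose values followed each member most closely were sought among 8542 others, by the smallest root mean square difference of log2 values, each minus its own mean, over the 9 arrays. With so many genes and 9 arrays close matches are common, and they are given as a description. Each member stood by its probe with the highest mean, ILMN_2723931 for E2f6 and ILMN_1238094 for Tfdp2. From that probe the other tested E2f6 probes differed by 0.54 to 1.37, and the other tested Tfdp2 probes by 0.11 to 1.83. E2f1 was followed by Plekha8 (0.42), Skp1 (0.43) and Larp4b (0.48), and E2f2 by Mfge8 (0.29), Edf1 (0.29) and Vim (0.43). E2f3 was followed by Abracl (0.26), Abcd3 (0.30) and Ube3a (0.35). E2f4 was followed by Cpq (0.21), P4hb (0.24) and Gimap1 (0.28), and Tfdp1 by Rps27l (0.14), Polr2h (0.14) and Dynlt1b (0.15). The small values for Tfdp1 go with its small spread between arrays. E2f5 had Crtc3 (0.45), Rora (0.46) and Zfr (0.48), and E2f6 had Rnf5 (0.47), Lrmp (0.48) and Pelo (0.49). E2f8 had Klhl24 (0.33), Bbx (0.35) and Syp (0.37), and Tfdp2 had Rnf123 (0.44), Rad51b (0.53) and Tmem216 (0.54). None of these 27 genes was another member.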

How the data were processed

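Total RNA of sorted cells, 250 pg an array, was amplified with a NuGEN kit, biotin-labelled and hybridised to bead arrays, per the labels' protocols. The authors deposited normalized values on a log scale with no base named, read here as log2. The submitters' processing notes name lumi, and the sources used here do not give the background correction, transformation or normalization. If variance was stabilised, differences of dim probes are understated. Another table, with 18 columns, was not used because its chip positions match no label.

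One gene symbol was annotated for 34885 of 45281 probes, several for 18 and none for 10378. By Entrez number 34807 matched the RefSeq gene table, and 0 symbols changed. Probes with 1 symbol and above 7.5 on at least 4 of 9 arrays (13333) were compared with limma 3.58.1 in R 4.3.3 (lmFit, eBayes, two-sided, no covariate, Benjamini-Hochberg over all probes tested). Lists used each gene's probe with the highest mean (8543 genes). Dim member probes had an exact two-sided permutation test over 126 splits. Named genes were all members, Socs2, the 4 lowest p-values of each list and the 3 closest patterns per member. The members and lists were chosen with earlier results of these data known. The procedure was tested on simulated data with independent noise and no array effects. That test does not cover arrays that stand apart. Precision is limited by the number of arrays, and replicate numbers do not pair them.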

Additional observations from a re-analysis of the deposited data

Results flagged for a closer look

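A value far from the other arrays of its genotype was looked for in 58 groups of 4 or 5 arrays (27 member and 2 Socs2 probes, each genotype), and 3 were found, where chance flags about 1 in 20. The E2f7 probe ILMN_1221078 read 7.77 on wt array 4, against 6.80 to 7.08 on the other wt arrays, and it was not among the tested probes. Both Socs2 probes had such a value in wt cells: ILMN_1250749 read 8.93 on wt array 2, against 6.72 to 7.01 on the other wt arrays, and ILMN_2628178 read 10.36 on wt array 3, against 9.38 to 9.65.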

How the results depend on the processing

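No E2F or DP probe passed the adjusted threshold under any of the alternatives run (396 comparisons of a probe and an alternative). Of the 19 tested probes, 9 kept their sign under every alternative (E2f1, both E2f3 probes, E2f4, E2f5, E2f6 ILMN_1246301 and ILMN_2734152, Tfdp2 ILMN_2488405 and ILMN_2760211) and 10 did not. Of the 9, E2f5 came as near to 0 as -0.0050 without wt array 4, and Tfdp2 ILMN_2760211 as 0.049 without Socs2-/- array 4. The count over all probes, 0 in the report, was 5 with no filter on dim probes, 1 with a minimum of 7.2, 1 with 1 probe a gene, 1 with the mean of the probes of a gene, and 0 to 7 with single arrays left out, 7 of them without wt array 3. Socs2 had an adjusted p of 0.0684 over probes and 0.0362 over genes.

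Without Socs2-/- arrays 1 and 2 the difference turned to -0.47 for E2f2 ILMN_1248842, -0.14 for E2f2 ILMN_2836137, -0.52 for E2f8 and 0.046 for Tfdp1. With array weights it turned to -0.40 for E2f8 and 0.17 for Tfdp2 ILMN_1238094, which also turned to 0.072 with centred arrays, 0.029 with quantile normalization and 0.093 with values below 7.5 set to 7.5. E2f6 ILMN_2723931 is counted as turned only because the mean of the 5 tested E2f6 probes (0.21) was set against it. Its own difference stayed below 0 under every alternative. With single arrays left out the range was -0.64 to 0.66 for E2f2 ILMN_1248842, -0.21 to 0.65 for ILMN_2673776 and -0.092 to 0.64 for ILMN_2836137. It was -0.55 to 0.079 for E2f6 ILMN_2581972 and -0.26 to 0.54 for ILMN_2791963, -0.39 to 0.41 for E2f8, -0.35 to 0.013 for Tfdp1, and -0.90 to 0.80 and -0.75 to 0.95 for Tfdp2 ILMN_1238094 and ILMN_2591651. The cause was not tested.

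Same-numbered arrays did not deviate together (correlations of 0.0125, -0.057, -0.0525 and 0.0288 for numbers 1 to 4). The replicate block used arrays 1 to 4 of each genotype, so wt array 5 was left out. With it 0 probes passed and E2f8 turned to -0.12, the same value as without wt array 5 and no block. Centring each array on its median moved the median of all probes from -0.19 to -0.07, and the share of lower probes at an unadjusted p under 0.05 was 68.4% in place of 78.5% (866 lower and 401 higher in place of 1076 and 294).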
